A study of Rattus norvegicus with 4 samples.

Results

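Macrophage migration inhibitory factor (Mif), its receptor subunit Cd74 and 8 chemokine system genes were followed in cultured rat (Rattus norvegicus) ovaries. The 10 genes were Mif, Cd74, Cxcl1, Cxcl6, Cxcl10, Cxcl12, Cxcr4, Ccl2, Ccl7 and Cx3cl1. They were represented by every probe set that carried 1 of these symbols alone in the platform annotation, 14 of 31099 on the array (10 of 14218 gene symbols). Whole ovaries of postnatal day 4 females, the age at which most follicles are primordial, were kept for 10 days in serum-free medium with insulin, transferrin, ascorbic acid, albumin and antibiotics. Control ovaries received no further treatment and the others received 50 ng/mL anti-Müllerian hormone (AMH), a TGF-beta family hormone of growing follicles. Each group had 2 independent RNA pools of about 10 ovaries, with 1 Affymetrix array for each pool (4 arrays). The series asks how AMH alters the ovarian transcriptome while it restrains the step from primordial to primary follicles.

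Chemokines are small secreted proteins that guide cells through G protein-coupled receptors, and they are grouped by the spacing of their first cysteines (CXC, CC and CX3C). MIF is a cytokine stored in many cell types that signals through CD74 with CD44 and also binds the chemokine receptors CXCR2, CXCR4 and ACKR3. In the ovary, chemokines are best known for drawing leukocytes to follicles around ovulation, and CXCL12 acting on CXCR4 is also known from germ cell migration.

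The genes were chosen with their AMH against control values already known. Their differences are therefore given as a description, without p-values. Changes are differences of mean log2(intensity + 16), AMH less control, and each carries its standard error from limma, fitted over every tested probe set with 2 arrays in a group. A probe set was tested if its mean log2 value reached 5.45, an intensity of about 27.8; 13 of the 14 did. Of these 13, 2 were higher and 4 lower at an adjusted p of 0.05, against 8.67% and 12.8% of all 18625 tested probe sets (21.5% in either direction). Short genes were called lower more often: 23.6% of probe sets of genes spanning up to 2500 bases, against 11.6% over 30000 bases. Cxcl1, Cxcl6, Cxcl10, Ccl2 and Ccl7 are in the shortest class. With the gene span trend removed, their differences were -0.03, -2.86, -1.12, -0.07 and -1.06, in that order. Mif is listed at 24085 bases, but that span holds long transcript models. Its class, and its -3.31 with the trend removed, are therefore uncertain. The part of gene span in these values was not otherwise tested. Both control values lay below both AMH values for 4 of the 13 and above them for 5. Over all tested probe sets the groups were apart in 63.5%, with AMH higher in 32.2% and lower in 31.2%. The members were picked with this contrast in view, so nothing is read from these shares.

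**Figure D1:**
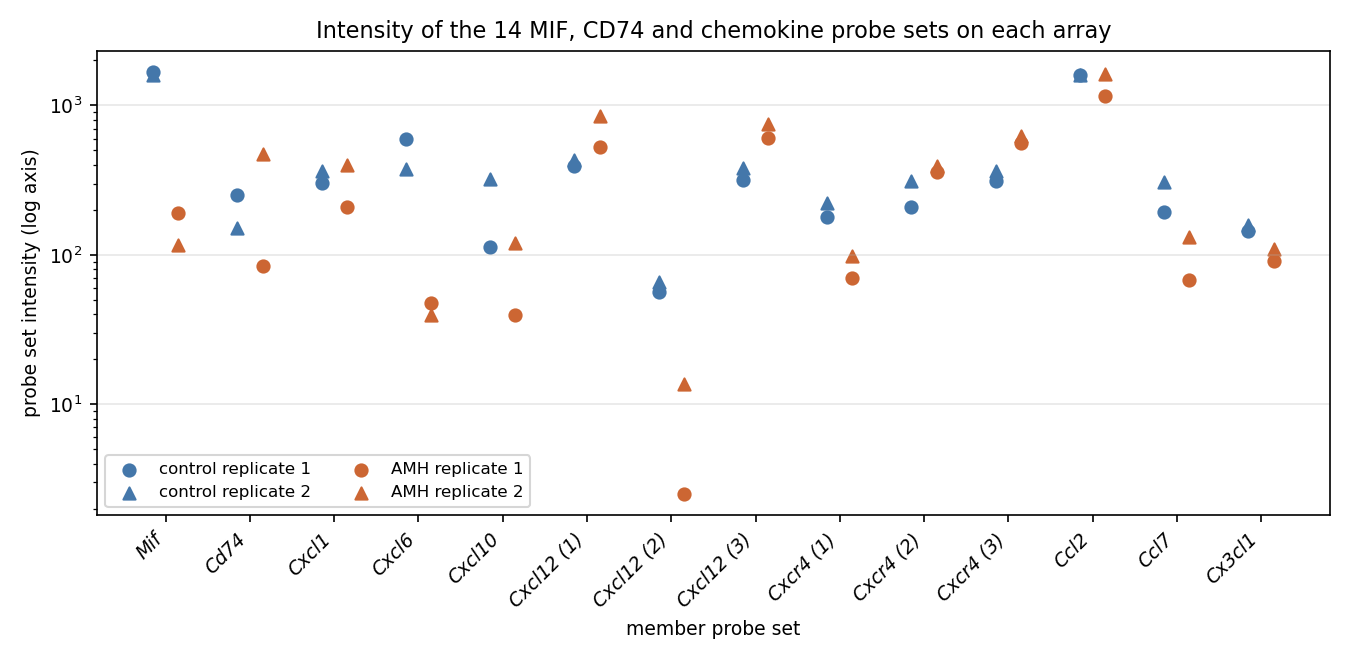
Intensity (log axis) of the 14 member probe sets on the 2 control arrays (blue) and the 2 AMH arrays (orange); circles are replicate 1, triangles replicate 2, and numbers in brackets tell probe sets of 1 gene apart. Mif and Cxcl6 stand far lower on both AMH arrays, the probe sets of Cxcl12 and of Cxcr4 part in opposite directions, and Cd74 spreads from 84.2 to 474.1 between the AMH arrays.

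The RNA quality controls differed between the groups. The ratio of 3′ to 5′ intensity of GAPDH, a measure of how complete the labelled RNA is, was 6.56 and 6.37 with AMH against 1.17 and 1.27 in control. For GAPDH the AMH minus control difference was -0.32 at the 3′, -1.33 at the middle and -2.68 at the 5′ probe set, and for beta-actin it was -2.36, -3.39 and -3.82. The chip identifiers held 2 run strings, with 0 shared by both groups, so run and treatment cannot be told apart in any result here. Of 8 genes that define ovarian cells (Foxl2, Amhr2, Zp3, Gdf9, Wt1 and Star among them), 6 were listed on the array, and all their 8 probe sets passed the filter on dim values, with a summed intensity of 6582 and 5852 in control and 6060 and 5211 with AMH. Of these 8, 1 rose and 2 fell, against 8.67% and 12.8% of all tested probe sets. The oocyte gene Gdf9 fell by 2.14 ± 0.18 (adjusted p = 0.00051) and passed in all 14 alternatives. One probe set of Wt1, a factor of granulosa and surface cells, fell by 1.10 ± 0.22 (adjusted p = 0.0114, but 0.121 without control replicate 1), and the other gave 0.25 ± 0.16 (adjusted p = 0.302). The AMH receptor gene Amhr2 rose by 0.70 ± 0.21 (adjusted p = 0.0462), a call lost in 8 of 14 alternatives, among them without control replicate 2 (0.324) or AMH replicate 2 (0.0861), with adjusted p from 0.0128 to 0.718. The part of these genes in the members' values was not tested. In whole ovaries, fewer cells of a type and less RNA per cell cannot be told apart.

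Mif, whose product inhibits random migration of macrophages and also has a tautomerase fold, had intensities of 1675.1 and 1584.5 in control. With AMH they were 189.1 and 115.9. The groups were far apart: the mean was 1630 ± 64.06 (SD, n = 2) in control, 10.7 times the 152.5 ± 51.76 with AMH. The difference was -3.32 ± 0.22, and it lay between -3.85 and -2.99 in 14 alternative analyses. By name, the RefSeq table lists 4 Mif-like genes and 9 Mif pseudogenes in the rat genome. Their sequences were not compared with Mif, and whether their transcripts add to this probe set was not tested.

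The 5 named probe sets whose values over the 4 arrays ran most like Mif, by Euclidean distance of mean-centred log2 values, were Ccno (0.33), Uchl1 (0.49), Rsrp1 (0.49), Hbb (0.57) and Cxcl6 (0.57). Ccno encodes a cyclin, Uchl1 a ubiquitin hydrolase and Hbb the beta chain of haemoglobin. Ccno was at 814.3 and 671.4 in control and 59.3 and 46.7 with AMH, a difference of -3.46 ± 0.19, and Hbb differed by -3.88 ± 0.22. The distances cover 4 arrays and 1 contrast.

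Of the 5 genes listed as MIF partners, 4 had tested probe sets (5 in all). Of these, 1 was higher and 2 lower, against 8.67% and 12.8% of all tested probe sets. Ddt, the closest homologue of MIF, fell by 1.41 ± 0.20 (518.3 and 545.4 in control, 158.6 and 226.2 with AMH, adjusted p = 0.00278, and 0.000119 to 0.0111 over 14 alternatives). Cops5, a COP9 signalosome subunit that binds MIF inside cells, fell by 1.10 ± 0.14 (1665.7 and 1897.6 to 820 and 825.1, adjusted p = 0.00214, and 0.000285 to 0.0172 over 14 alternatives). Both falls passed in every alternative that was run. Ackr3, an atypical receptor that binds CXCL12 and MIF, rose and is described with Cxcl12. The 2 probe sets of Cd44, the co-receptor of CD74, differed in sign (0.64 ± 0.29 and -0.41 ± 0.21) and neither passed (adjusted p = 0.155 and 0.194). Cxcr2 was below the filter, at 10.3 on both control arrays and at 2.7 and 0.7 with AMH.

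Cd74, which encodes both the MIF receptor subunit and the invariant chain of MHC class II, had the largest ratio between the 2 AMH arrays among the members (5.63). It was at 251.6 and 151.3 in control and at 84.2 and 474.1 with AMH, so the AMH arrays enclosed the control arrays. The difference was 0.07 ± 0.61. It was 1.21 without AMH replicate 1 and -1.08 without AMH replicate 2, so its direction rested on which AMH array was kept.

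Leukocyte genes separated the AMH arrays in the same way. Of the 16 tested probe sets of leukocyte and macrophage markers, 15 were brighter on AMH replicate 2 than on replicate 1, with a median difference of 0.82 (log2), against 45.8% and -0.04 over all tested probe sets. Between the control arrays the median of replicate 2 minus 1 for these markers was -0.11. The members leaned the same way: 11 of their 13 tested probe sets were brighter on AMH replicate 2, with a median of 0.40. Between the control arrays the median of the members was 0.21. The summed intensity of all 22 marker probe sets was 2163 and 1960 in control and 1465 and 3212 with AMH, while that of 8 endothelial probe sets was 1049, 1039, 1233 and 1224. Lyz2, a lysozyme of myeloid cells, was 6.29 times as bright on AMH replicate 2 as on replicate 1, the monocyte co-receptor gene Cd14 2.21 times and the pan-leukocyte gene Ptprc 2.14 times, against 5.63 times for Cd74. Csf1r, the receptor for macrophage colony-stimulating factor, was the exception at 0.58 times. The markers Cd68 and Laptm5 were only 1.05 times as bright. The part of the marker genes in the Cd74 values was not tested.

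Between the groups, 2 of the 16 leukocyte and macrophage probe sets rose and 1 fell, against 8.67% and 12.8% of all tested probe sets. Cd68, a lysosomal protein of macrophages, rose by 1.04 ± 0.21 (adjusted p = 0.0122) and Cybb, the oxidase subunit of phagocytes, by 0.84 ± 0.25 (adjusted p = 0.0431). C1qb, a complement subunit made by macrophages, fell by 1.51 ± 0.28 (adjusted p = 0.00913). Without control replicate 1 the adjusted p was 0.0677 for C1qb and 0.171 for Cybb, without control replicate 2 it was 0.0893 for Cd68 and 0.163 for Cybb, and without AMH replicate 2 it was 0.118 for Cybb. Scaling to the hybridization controls gave 0.112 for Cd68 and 0.273 for Cybb, and Cybb was also lost with no filter on dim probe sets (0.099) and with the replicate block (0.0517). Over all alternatives of these 3 genes the adjusted p ran from 0.000773 to 0.273. Of 8 lymphocyte probe sets 7 were below the filter, and of 2 neutrophil probe sets S100a8 was below it, with 1.5 to 13.4 over the 4 arrays.

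The genes that work with CD74 in antigen presentation gave 0 calls among 9 tested probe sets (median -0.08, range -0.56 to 1.75). Over all tested probe sets 21.5% were called. RT1-Ba, an MHC class II chain, had the largest difference at 1.75 ± 0.69 (38.6 and 6.1 in control, 36.3 and 244.4 with AMH, adjusted p = 0.106). Its AMH arrays lay 6.73 times apart in the direction seen for Cd74. The 2 other tested probe sets of RT1-Ba gave -0.08 and -0.43, with AMH replicate 2 at 0.576 and 1.60 times replicate 1. A further RT1-Ba probe set below the filter was lower with AMH, at 42.8 and 29.4 in control and 4.2 and 4.3 with AMH. RT1-DMb, which helps load peptides, gave -0.56 ± 0.26 (adjusted p = 0.16).

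**Figure D2:**
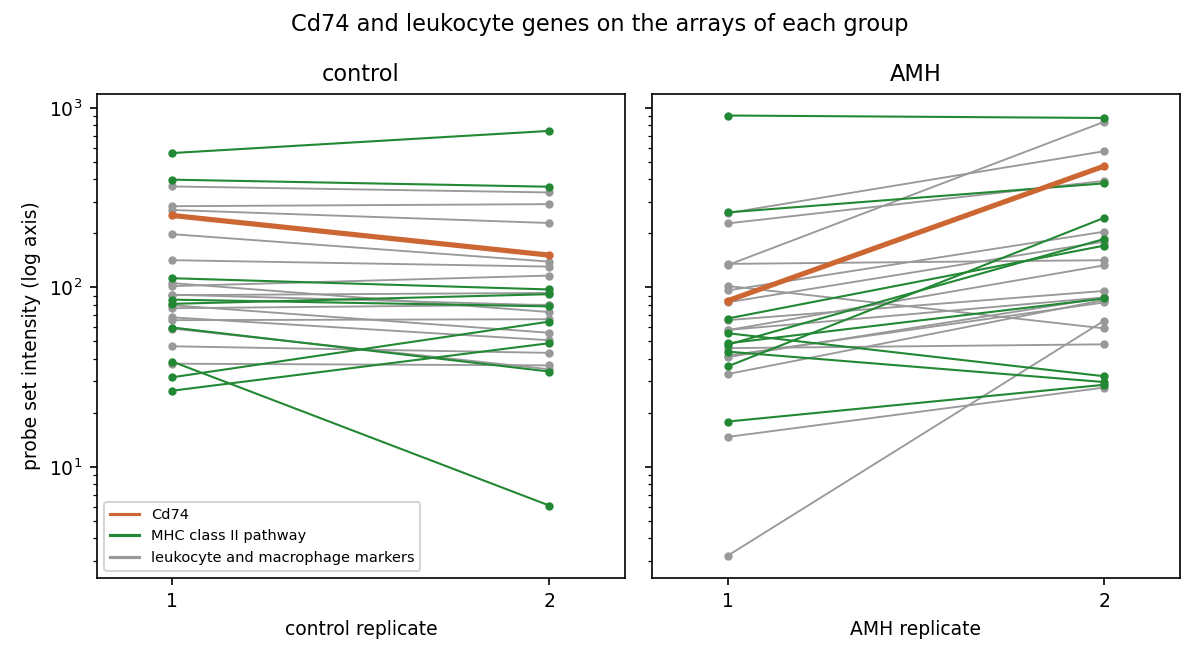
Intensity (log axis) of Cd74 (orange), tested probe sets of the MHC class II pathway (green) and tested leukocyte and macrophage markers (grey) on the control arrays (left) and AMH arrays (right); each line joins 1 probe set on the 2 arrays of a group. Of the grey lines, 15 of 16 run upward from AMH replicate 1 to replicate 2, as does Cd74 (84.2 to 474.1).

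Cxcl6 and Cxcl1 encode neutrophil-attracting CXC chemokines that act on CXCR2, and Cxcl6 is the rat gene also listed as Cxcl5. Cxcl6 had an intensity of 591.1 and 376.1 in control and of 47.9 and 39.4 with AMH. Both AMH values were far below both control values, with means of 43.65 ± 6.01 and 483.6 ± 152 (SD, n = 2), an 11.1-fold ratio. The difference was -3.04 ± 0.24 and ranged from -3.51 to -2.32 over 14 alternatives, the smallest with 64 added in place of 16.

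Cxcl1 did not share this pattern. Its intensity was 304.6 and 365.1 in control and 207.5 and 400.8 with AMH, so the groups overlapped, with a difference of -0.20 ± 0.28. Without AMH replicate 1 it was 0.25 and without AMH replicate 2 it was -0.65.

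In the RefSeq table of GRCr8, both genes lie in 1 CXC cluster with 4 protein-coding genes between them, among them Cxcl3, Pf4 and Ppbp. The bases just before their annotated starts hold the same kappaB stretch, the DNA element bound by NF-kappaB factors, which is why the pair is shown. Capitals mark matches to the kappaB consensus, on either strand.
Cxcl1, chr14:17479322-17479471, minus strand: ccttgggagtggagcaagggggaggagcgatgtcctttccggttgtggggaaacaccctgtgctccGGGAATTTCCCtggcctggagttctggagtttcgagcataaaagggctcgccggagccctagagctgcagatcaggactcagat
Cxcl6, chr14:17596418-17596567, minus strand: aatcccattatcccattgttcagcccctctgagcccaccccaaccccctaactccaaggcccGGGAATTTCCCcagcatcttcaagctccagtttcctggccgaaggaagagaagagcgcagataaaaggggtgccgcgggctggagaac
The stretch of 11 bases is identical in both, GGGAATTTCCC, and starts 84 bases before the start of Cxcl1 and 88 bases before that of Cxcl6. The differences were -0.20 for Cxcl1 and -3.04 for Cxcl6, and the part of this stretch in either was not tested. Promoter windows were listed for 9 of the 10 members. A kappaB match lay in the 250 bases before the start in 5 of them (Cd74, Cxcl1, Cxcl6, Cxcl10 and Ccl7), against 6.33% of all 33469 windows, and none of these letters was found in the windows of Mif, Cxcl12, Cxcr4 and Cx3cl1. A match is a description of letters, not of a bound site.

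The promoter end of Mif is shown because Mif had the most negative difference of the members and its window held none of the 3 motifs searched, the kappaB consensus, the interferon-stimulated response element (TTTC, any 2 bases, TTTC) and the TATA box TATAAA.
Mif, chr20:12790207-12790356, plus strand: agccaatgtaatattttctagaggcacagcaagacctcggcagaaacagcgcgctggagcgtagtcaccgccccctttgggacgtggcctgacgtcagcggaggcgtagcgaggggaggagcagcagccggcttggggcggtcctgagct
The letters TATAAA were found in 4 members (Cxcl10, Cxcr4, Ccl7 and Cx3cl1) and in 12.9% of all windows, on either strand. They began 162 bases before the start in Cxcl10, 78 in Cx3cl1, 34 in Ccl7 and 46 and 44 in Cxcr4. The 2 matches of Cxcr4 overlap. Only these exact letters were searched, so near matches in other windows were not counted, and a match is not a working TATA box.

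Cxcl10 encodes an interferon-induced chemokine for T cells and natural killer cells, which carry its receptor CXCR3. Its intensity was 112.9 and 322.6 in control and 39.3 and 120.5 with AMH. The ranges overlapped, since AMH replicate 2 was slightly brighter than control replicate 1. The difference was -1.27 ± 0.50, from -1.96 without control replicate 1 to -0.57 without control replicate 2, and replicate 2 was about as far above replicate 1 in control (2.86 times) as with AMH (3.07 times). Its neighbour in the genome, Cxcl11, a further CXCR3 ligand, gave -0.51 ± 0.46 (adjusted p = 0.47), and Cxcr3 itself gave 0.04 ± 0.27 (adjusted p = 0.936).

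The promoter of Cxcl10 is shown as the only one of the members with an interferon-stimulated response element, found in 3.41% of all windows. Capitals mark, from the left, that element read on the other strand and 2 kappaB stretches.
Cxcl10, chr14:15988816-15989065, plus strand: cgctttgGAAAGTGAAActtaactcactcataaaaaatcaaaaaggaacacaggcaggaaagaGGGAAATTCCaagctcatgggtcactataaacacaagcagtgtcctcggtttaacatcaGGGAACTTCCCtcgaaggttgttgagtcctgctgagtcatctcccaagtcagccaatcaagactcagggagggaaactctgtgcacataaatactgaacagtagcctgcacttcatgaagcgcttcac
Irf1, an interferon-induced transcription factor, fell by 0.95 ± 0.15 (674.8 and 652.2 in control, 323.1 and 347.5 with AMH, adjusted p = 0.00488), and it passed in each of 14 alternatives (0.000642 to 0.0446).

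CXCL12 and its receptor CXCR4 each gave contradictory probe sets. Of the 3 probe sets of Cxcl12, probe set (1) had an intensity of 394.1 and 429.2 in control and of 522.7 and 852.2 with AMH. Probe set (3) was at 314.3 and 379.2 in control and at 609.2 and 748.6 with AMH. In both, each AMH array was above each control array, with differences of 0.68 ± 0.23 and 0.94 ± 0.18. Probe set (2) went the other way, at 56.6 and 65.7 in control against 2.5 and 13.6 with AMH. Its mean was below the filter, so it has no place in the fit, and its difference of -1.72 depends on the constant added (-0.80 with 64).

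The 3 probe sets of Cxcr4 split likewise. Probe set (1) had an intensity of 178.1 and 223.9 in control and of 70.5 and 98.1 with AMH, a difference of -1.12 ± 0.22. Probe set (2) was at 210.4 and 310.7 in control and 355.6 and 390.9 with AMH (0.52 ± 0.21), and probe set (3) at 314.2 and 366 in control and 559.3 and 627.7 with AMH (0.78 ± 0.16). The groups were apart in all 3, with AMH lower in (1) and higher in (2) and (3). The last pair were built on the same source sequence in the platform annotation, so they do not measure the gene independently. The largest and smallest difference of Cxcr4 lay 1.90 apart, a gap reached by 5.52% of the 2609 genes with several tested probe sets (median 0.68). Of those genes, 3.79% were called in both directions. Probe sets apart in both directions were found in 28.4% of them, and differences of opposite sign in 56.5%. Where each probe set lies along its transcript was not analysed here, and its part in the split, with the 3′ to 5′ ratios given above, was not tested. With scaling to the hybridization controls, which lowers the median of all probe sets to -0.46, the differences were 0.14 and 0.39 for the tested Cxcl12 probe sets and -1.61, -0.02 and 0.24 for those of Cxcr4.

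Ackr3, the scavenger receptor that removes CXCL12, had 1 probe set. It was at 254.8 and 286.8 in control and at 724.7 and 625.8 with AMH and rose by 1.27 ± 0.16 (adjusted p = 0.00204), and it passed in all 14 alternatives (0.000388 to 0.024), also with hybridization control scaling (0.73). It was the only call among the 5 tested probe sets of other chemokine receptors, against 21.5% called over all tested probe sets.

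Ccl2 and Ccl7 encode monocyte-attracting CC chemokines that act on CCR2, and they are adjacent protein-coding genes in the RefSeq table. Ccl2 had an intensity of 1607 and 1601 in control and of 1147.6 and 1629.9 with AMH. The control arrays lay between the AMH arrays, and the difference was -0.23 ± 0.18.

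Ccl7 was at 193.7 and 306.3 in control and at 68.1 and 132.6 with AMH. All AMH values were below all control values, and the difference was -1.22 ± 0.31. It was -0.81 without AMH replicate 1 and -1.63 without AMH replicate 2, so the spread of the AMH arrays moved its size. Ccl11, a chemokine for eosinophils, gave 0.63 ± 0.26 (adjusted p = 0.118). Of their receptors, Ccr2 was listed at 3.1 to 8.2 over the 4 arrays, below the filter.

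Cx3cl1 encodes fractalkine, a membrane-bound chemokine that is cut from the cell surface by ADAM10 and ADAM17 and acts on CX3CR1. Its intensity was 143.8 and 157.5 in control and 90.3 and 109.1 with AMH. The AMH arrays were both below the control arrays, by a small margin, with a difference of -0.53 ± 0.20 (-1.02 to -0.39 over 14 alternatives). Cx3cr1, also a microglia and macrophage marker, lay below the filter with 1.4 to 28.9 over the arrays.

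**Figure D3:**
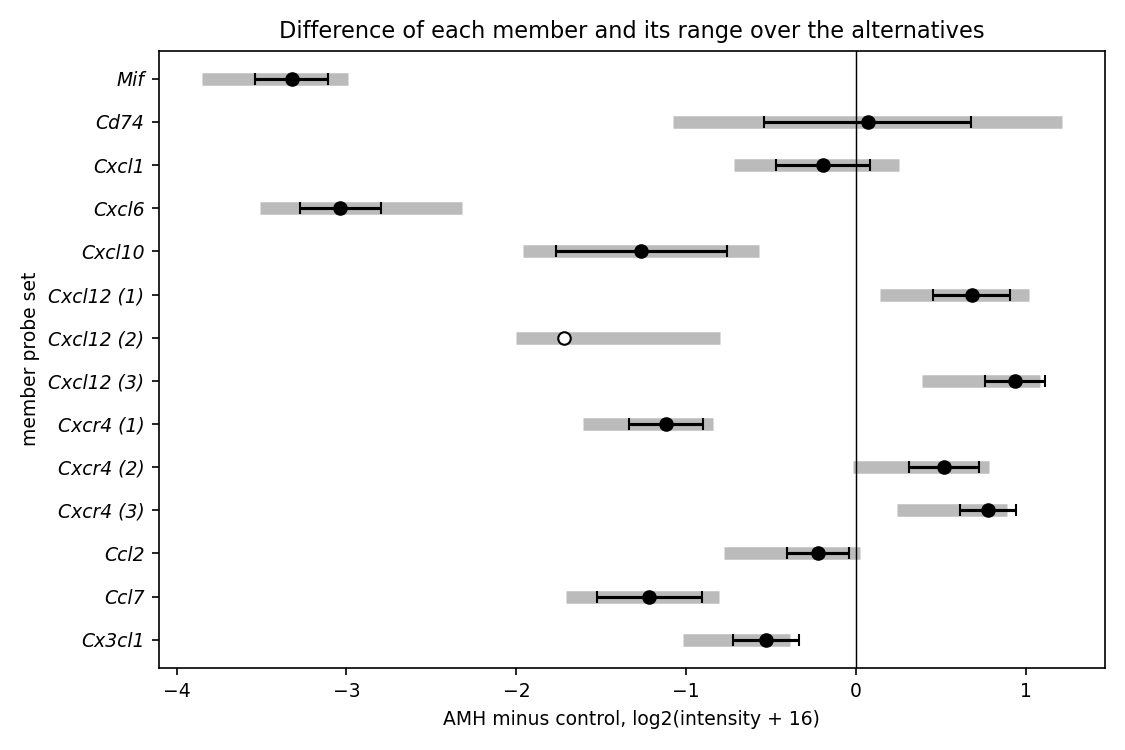
Difference in mean log2(intensity + 16), AMH less control, for the 14 member probe sets. Points with bars are the difference ± standard error from limma (2 arrays in each group), the open point was below the filter and has no error, and grey bars span the lowest and highest value over the alternatives. Mif and Cxcl6 stay below -2.32 throughout, while the grey bars of Cd74, Cxcl1, Ccl2 and the second Cxcr4 probe set cross 0.

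Most other chemokine ligands were dim or did not pass. Of 27 listed, 24 were on the array, and 18 probe sets of 16 genes were tested. Of these, 1 was higher, 2 lower and 15 not called, against 8.67% higher and 12.8% lower over all tested probe sets. The median was -0.45, against 0.02 for all tested probe sets. The groups were apart with AMH higher in 3 of the 18 and with AMH lower in 10. Over all tested probe sets these shares were 32.2% and 31.2%. Ccl21, a lymph vessel chemokine for CCR7, fell by 1.90 ± 0.25 (155.3 and 245.7 to 40.4 and 41, adjusted p = 0.00207). Ccl5, a T cell and monocyte attractant, fell by 1.49 ± 0.29 (195.4 and 169.6 to 36.5 and 79, adjusted p = 0.00994). Both passed in all 14 alternatives (7.21e-05 to 0.00694 for Ccl21 and 0.000285 to 0.0325 for Ccl5).

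Cxcl2, the genomic neighbour of Cxcl1 and also a CXCR2 ligand, rose by 0.81 ± 0.23, from 36.4 and 31.9 to 73.9 and 69.9 (adjusted p = 0.0382). This call was lost without control replicate 1 (0.155), control replicate 2 (0.207) and AMH replicate 1 (0.058), with the replicate block (0.0535), with no filter on dim probe sets (0.0926) and with hybridization control scaling (0.266; 0.0181 to 0.266 over 13 alternatives). Thus Cxcl6 was lower, Cxcl1 overlapped and Cxcl2 was higher by a call that most left-out arrays ended. Between Cxcl1 and Cxcl6, the tested Cxcl3 probe sets gave -0.399, -0.521 and -0.695. In each, both AMH arrays were below both control arrays, and none was called. Pf4 gave -0.064 with overlapping groups, and Ppbp was below the filter. Cxcl13, a B cell attractant, gave 1.20 ± 0.47 and was not called (adjusted p = 0.102), with control arrays at 229 and 833.6. Ccl6 gave -1.65 ± 0.58 and was not called either (adjusted p = 0.0772), with AMH arrays at 1.8 and 58.1.

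Among inducers of chemokines and the NF-kappaB pathway, 4 of 16 tested probe sets fell and 0 rose (median -0.21). Over all tested probe sets 12.8% fell and 8.67% rose. Nfkbia, the inhibitor that holds NF-kappaB in the cytoplasm and is itself induced by it, fell by 2.54 ± 0.18 (774.3 and 1019.2 in control, 141.3 and 137.3 with AMH, adjusted p = 0.000268, and 1.53e-05 to 0.00286 over 14 alternatives). Relb and Nfkb2, the subunits of the non-canonical pathway, fell by 0.95 ± 0.23 (adjusted p = 0.0223) and 0.90 ± 0.23 (adjusted p = 0.0281), and Irf1, given above, was the remaining fall. Without control replicate 1 the adjusted p was 0.128 for Relb and 0.187 for Nfkb2, and without control replicate 2 it was 0.0815 and 0.0893 (0.00208 to 0.187 over all alternatives of both). Nfkb2 was also lost with median centring (0.0532) and with no filter on dim probe sets (0.0632). Rela (-0.09 ± 0.18) and Nfkb1 (0.09 ± 0.20), the main canonical subunits, were not called (adjusted p = 0.773 for both). Il1b gave -0.27 ± 0.20 (adjusted p = 0.375), while Ifng and Il6 were below the filter, Il6 at 7.5 and 17.7 in control and 63.2 and 31.8 with AMH.

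Of 10 tested probe sets of genes that cut or anchor chemokines, 2 rose and 1 fell, against 8.67% and 12.8% of all tested probe sets. Mmp2, a gelatinase that can cut CXCL12 and CCL7, rose by 0.81 ± 0.17 (706.3 and 718.1 to 1444.5 and 1097.3, adjusted p = 0.0131), a call lost without control replicate 1 (0.0781), control replicate 2 (0.0582) and with hybridization control scaling (0.401; 0.000653 to 0.401 over 14 alternatives). Adam17, a sheddase of CX3CL1, rose by 0.54 ± 0.16 (adjusted p = 0.0403), a call lost in 8 of 14 alternatives. Among them were the fits without control replicate 1, control replicate 2 or AMH replicate 2, and the replicate block (0.0631). Another was hybridization control scaling, where the difference was 0.00. Adam10, the other sheddase named above, gave -0.33 ± 0.21 (adjusted p = 0.303), and its further probe set was below the filter. Sdc4, a heparan sulfate proteoglycan, fell by 0.96 ± 0.15 (1126.5 and 957.9 to 523.8 and 529.7, adjusted p = 0.00493), with 0.057 without control replicate 1 (0.000685 to 0.057 over 14 alternatives).

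Over all 6 lists, less the members, 62 probe sets were tested, of which 4 were higher, 9 lower and 49 not called, with a median of -0.25. For all tested probe sets the median was 0.02 and 21.5% were called.

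**Figure D4:**
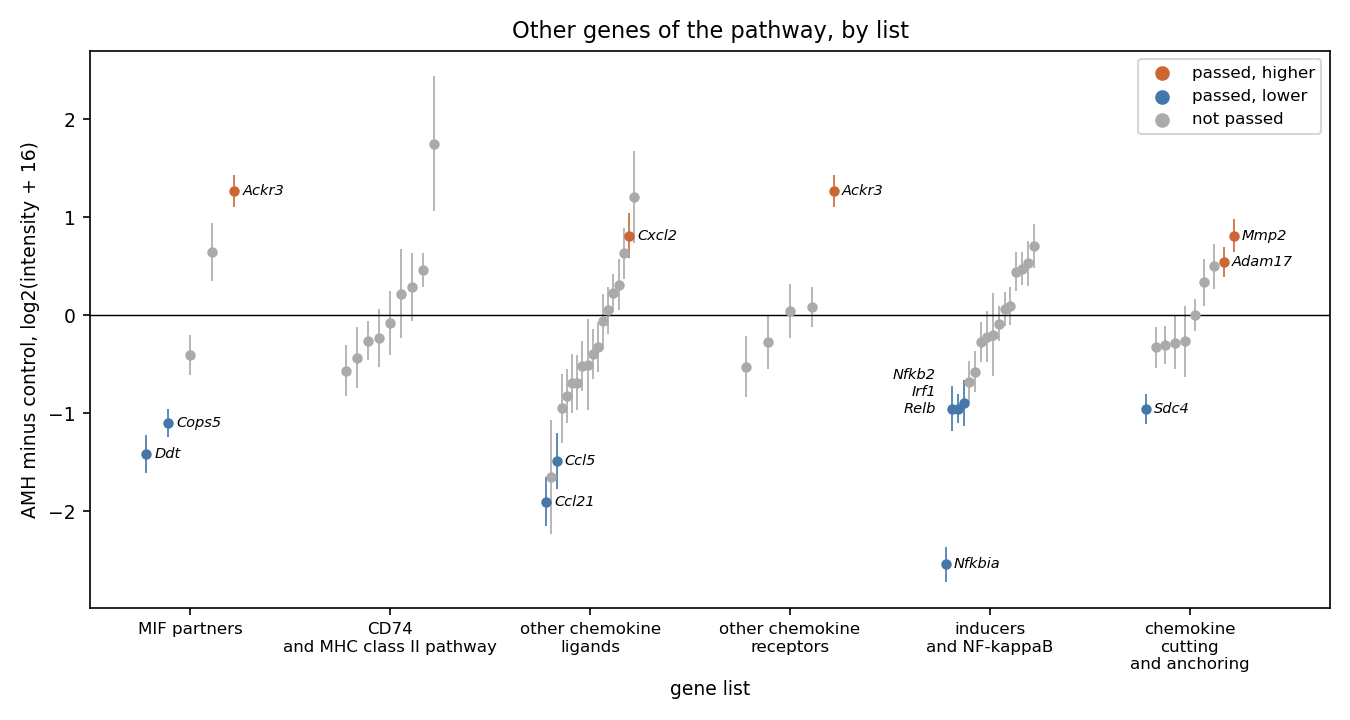
AMH minus control (log2 of intensity + 16, ± standard error from limma, 2 arrays in each group) of the tested probe sets in 6 lists of other genes of the MIF and chemokine system. Orange and blue points passed an adjusted p of 0.05 as higher and lower and are named, and grey points did not pass. Ackr3 stands in 2 lists, Nfkbia lies lowest at -2.54, and the MHC class II list holds no call.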

How the data were processed

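The members, gene lists and comparisons were chosen with earlier results of these data known. The deposited values are linear intensities, 1 for each probe set. The authors' scaling is visible in them, since the trimmed mean was 125.03 on every array. The sources used here name no summary software. They hold no detection calls, and the number of arrays limits precision.

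Groups and replicate numbers came from the titles. From log2(intensity + 16), control probe sets (57) and, of the rest, the dimmest 40% by mean were left out. AMH was compared with control by limma 3.58.1 in R 4.3.3 (lmFit, eBayes with intensity trend, 2 residual and 6.33 prior degrees of freedom), two-sided, with Benjamini-Hochberg adjustment over 18625 probe sets. The fit was also run on simulated data with a single spread for all probe sets and no run or RNA quality difference. It therefore does not check how the fit deals with those features of these arrays. Symbols are those of the platform annotation (20832 probe sets with 1, 436 with several, 9831 with none listed), and 20764 matched RefSeq's GRCr8 gene table by Entrez identifier. Promoter windows are RefSeq's.

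Named list genes are all those past the threshold, or the 2 largest differences where a list had none. Others (Cd44, Cxcr2, Ccr2, Cx3cr1, Cxcr3, Cxcl3, Pf4, Ppbp, Cxcl11, Ccl6, Ccl11, Cxcl13, Rela, Nfkb1, Il1b, Il6, Ifng, Adam10, Lyz2, Cd14, Ptprc, Csf1r, Laptm5, S100a8, Foxl2, Zp3, Star) were chosen after their values were seen. Alternatives covered the constant, filter, scaling, variance trend, gene span, replicate block and each array left out.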

Additional observations from a re-analysis of the deposited data

How the results depend on the processing

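No called member changed sign in the alternatives that were run, while Cd74, Cxcl1, Ccl2 and the second Cxcr4 probe set, which were not called, took both signs. Of 277 values for called list and marker genes, 235 kept their call, 42 lost it and 0 reversed. Counts over all probe sets (1614 higher, 2385 lower) were 1010 higher with no filter on dim probe sets and 989 higher without an intensity trend. Hybridization control scaling called 122 higher and 5942 lower (98% of calls lower, against 59.6%; 47.9% with median centring), and for the pathway lists 1 higher and 25 lower in place of 4 and 9. The lists gave 2 higher with no filter. With 1 array left out the counts over all probe sets ran from 334 to 2245 higher (lowest without control replicate 1) and 1047 to 2886 lower, and those of the lists from 2 to 9 higher and 7 to 15 lower. In such fits the lone array is assumed to vary like the other group. The members gave 0 higher and 5 lower without control replicate 1, 2 and 2 without control replicate 2, 4 and 4 without AMH replicate 1, and 2 and 9 without AMH replicate 2. They gave 0 higher and 8 lower with hybridization control scaling (14 tested), 3 and 5 with the replicate block and 2 and 3 with median centring, against 2 and 4. Median centring called 2017 higher and 1858 lower over all probe sets. Since the counts over all probe sets differed between these fits as well, nothing is read from the member counts. With the replicate block 1350 probe sets were higher and 2216 lower, and the lists gave 4 and 11. Deviations of same-numbered arrays correlated at -0.001 over all tested probe sets. Such a correlation cannot tell whether single genes share a replicate factor, so none is drawn or dismissed from it. A constant of 16 understates the change of dim probe sets. In place of depth, brightness over background limits Cxcr2, Ccr2, Cx3cr1 and the second Cxcl12 probe set.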
